A study of Homo sapiens with 6 samples.

Results

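The ERBB receptors and the EGF-family ligands that bind them were followed by RNA-seq in SW620 cells (as labelled), an established human line from a colorectal cancer. The set was fixed by gene symbol: the receptor genes EGFR, ERBB2, ERBB3 and ERBB4 and the ligand genes AREG, EREG, TGFA, HBEGF, BTC and EGF. Of these 10 genes, 9 have a row in the count table of 20729 genes, and all 9 were tested. ERBB4 is not analysed here. The tested libraries came from cells given an siRNA against OSBPL3 (siOSBPL3, 3 libraries), and the others from cells given a control siRNA (siNC, 3 libraries). OSBPL3 encodes a lipid-binding protein of the oxysterol-binding-protein family, and the series title ties it to Hippo-YAP signalling and to the response to MEK inhibition. The labels name 1 cell line and give no siRNA sequence, dose or duration. Nor do they call the repeats of a group separate cultures, so p-values rest on the spread among these libraries alone, possibly a technical one.

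As background, ERBB receptors are tyrosine kinases that act in pairs at the cell surface. EGFR binds the ligands studied here, ERBB2 binds none and serves as a partner, and ERBB3 has weak kinase activity and binds neuregulins, so it signals through its partners. The ligands are made as membrane-bound precursors that proteases release, and the activated receptors feed RAS-MEK-ERK and PI3K signalling. In colorectal cancer, AREG and EREG expression is widely studied as a marker of response to antibodies against EGFR.

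The groups differed far beyond this family. Total counts ran from 34569895 to 39701340 in siOSBPL3 and from 30040020 to 33667128 in siNC. The correlation of log2 CPM across tested genes was 0.978 to 0.982 between siOSBPL3 libraries, 0.987 to 0.988 between siNC libraries and 0.707 to 0.712 between the groups. CPM here means counts per 1000000, with library sizes scaled by TMM. OSBPL3 was at 40.2, 12.2 and 15.1 CPM in siOSBPL3 replicates 1, 2 and 3, against 179, 174 and 175 CPM in siNC (log2 fold change -2.97 ± 0.48 SE, adjusted p = 0.0016, edgeR quasi-likelihood test). Its log2 fold change was -3.68 without siOSBPL3 replicate 1 and -2.36 after smooth offsets for GC and length (called the GC-length correction from here on). Over all 15506 genes tested, 40.4% were called higher in siOSBPL3 and 39.8% lower at an adjusted p under 0.05. Of 15 colorectal epithelial markers in the table, 13 were tested, of which 6 rose (46.2%), 4 fell (30.8%) and 3 were not called, shares near those of all genes. Their summed level was 5033 to 6157 CPM in siOSBPL3 and 7227 to 7306 CPM in siNC. EPCAM and the keratin genes KRT8, KRT18 and KRT19 were abundant in both groups. KRT20, CEACAM5, GPA33 and CDX1 were under 1 CPM in both, and CDX1 had no count in siNC. CDX2, an intestinal transcription factor gene, was at 63.5 ± 9.66 CPM in siOSBPL3 and 1.15 ± 0.40 CPM in siNC (SD, n = 3 each). VIL1 of the same list went the other way, at 62.6 ± 2.38 CPM in siOSBPL3 and 482 ± 3.88 CPM in siNC. So did HNF4A, at 39.1 ± 3.23 CPM in siOSBPL3 and 92.1 ± 2.26 CPM in siNC. Summed fibroblast markers were at 3.46 to 5.98 CPM in siOSBPL3 and 70.0 to 74.4 CPM in siNC, where LUM gave 60.3 CPM. COL3A1, DCN, THY1 and FAP were under 1 CPM in both groups, and LUM had no count in siOSBPL3. Leukocyte markers summed to 8.55 to 11.3 CPM in siOSBPL3 and 20.1 to 22.2 CPM in siNC, with PTPRC under 1 CPM in both. Of the 3 leukocyte markers tested, 1 rose and 2 fell. CD68, a macrophage marker that gave most of the sum, fell, at 5.87 CPM in siOSBPL3 and 19.0 CPM in siNC. LYZ fell too, at 0.18 CPM in siOSBPL3 and 1.93 CPM in siNC. CD14, a monocyte marker, rose, at 3.06 CPM in siOSBPL3 and 0.28 CPM in siNC. Endothelial markers summed to 0.219 to 0.803 CPM in siOSBPL3 and 1.39 to 2.37 CPM in siNC. The part of these differences in the ERBB results was not tested, and a difference in the cells themselves cannot be told apart from an effect of the siRNA. In bulk RNA, fewer cells that express a gene and less RNA per cell cannot be told apart either.

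Receptor and ligand transcripts shifted in both directions, and most of the tested members rose. Of 9 tested, 7 were higher in siOSBPL3, 2 were lower and 0 were not called at an adjusted p of 0.05. The ligand genes EREG, AREG, BTC and EGF and the receptor genes EGFR and ERBB2 rose by more than 2-fold, HBEGF rose by less, and ERBB3 and TGFA fell. Over all genes tested, 80.2% were called, 40.4% as higher and 39.8% as lower, so a call by itself sets no member apart. At least 2-fold changes were called for 24.8% of all genes as higher and 24.1% as lower, against 6 and 1 of the 9 members. The median log2 fold change was 2.39 over the 9 members and -0.00089 over all tested genes. The median of its absolute value was 2.39 over the members and 1.00 over all tested genes. The groups did not overlap for any of the 9 members, and they did not overlap for 83.0% of all tested genes. BTC and EGF passed the filter on low counts through siOSBPL3 alone, so their call follows in part from the filter.

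**Figure D1:**
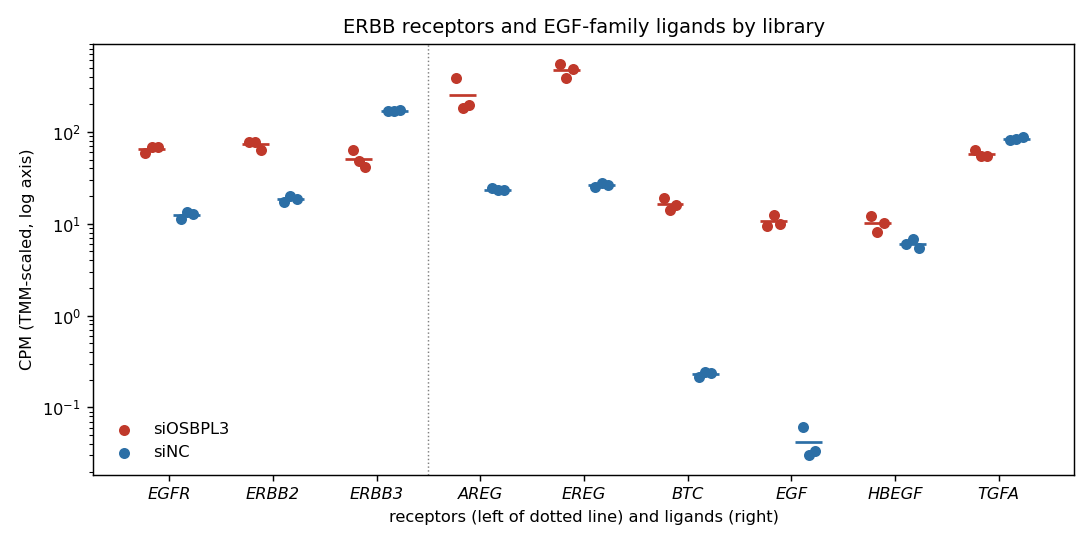
Level of each member in each library, in CPM on a log axis, with siOSBPL3 in red and siNC in blue; points are libraries and bars are means of 3. Points of the groups do not overlap for any of the 9 genes; ERBB3 and TGFA are lower in siOSBPL3 and the other 7 are higher.

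EGFR, the receptor for the ligands measured here, stood at 59.6, 69.2 and 68.2 CPM in the siOSBPL3 libraries, against 11.4, 13.3 and 12.9 CPM in the siNC libraries. The 3 siOSBPL3 libraries lay close together and well above all siNC libraries. The fold change was 5.25 (log2 2.39 ± 0.11 SE, adjusted p = 1.0e-09, edgeR quasi-likelihood test). EGFR varied about equally within the groups, with a coefficient of variation of 8.04% in siOSBPL3 and 8.18% in siNC. In RefSeq, an antisense transcript (EGFR-AS1) overlaps 9200 bases of the EGFR span, and without a stated strand setting sense and antisense reads cannot be separated.

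ERBB2, the partner receptor with no known ligand, stood at 78.6, 77.8 and 64.3 CPM in siOSBPL3 and at 17.2, 20.3 and 18.7 CPM in siNC. The siOSBPL3 libraries all lay far above the siNC libraries. ERBB2 rose 3.93-fold (log2 1.97 ± 0.11 SE, adjusted p = 6.6e-09, edgeR quasi-likelihood test), and with the GC-length correction its log2 fold change was 1.47.

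ERBB3 moved the other way. The gene stood at 63.6, 48.2 and 42.0 CPM in siOSBPL3, against 169, 171 and 172 CPM in siNC. Levels in siNC were nearly identical, with a coefficient of variation of 0.891%, and those in siOSBPL3 spread more, at 21.8%. Across the 11206 genes that averaged 5 CPM or more, the median coefficient of variation was 10.9% in siOSBPL3 and 4.01% in siNC. ERBB3 was 3.33-fold lower in siOSBPL3 (log2 fold change -1.74 ± 0.13 SE, adjusted p = 1.1e-07, edgeR quasi-likelihood test).

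Levels of different genes were compared per length, as TPM, from the merged exon length of each gene in GENCODE 29. Summed over EGFR, ERBB2 and ERBB3, receptor transcripts came to 75.4, 70.8 and 60.3 TPM in siOSBPL3 and to 77.9, 81.3 and 81.3 TPM in siNC. The sum was therefore somewhat lower in siOSBPL3, while its make-up differed widely. ERBB3 made up 30.9%, 24.6% and 24.5% of the sum in siOSBPL3, against 84.97%, 82.8% and 84.0% in siNC. ERBB2 made up 50.1%, 52.2% and 49.3% in siOSBPL3, against 11.3%, 12.9% and 11.9% in siNC. The EGFR share was 19.0%, 23.2% and 26.1% in siOSBPL3, against 3.73%, 4.23% and 4.12% in siNC. ERBB2 was thus the most abundant of the 3 transcripts per length in every siOSBPL3 library and ERBB3 in every siNC library. The ratio of ERBB3 to EGFR in TPM was 1.63, 1.06 and 0.938 in siOSBPL3, against 22.8, 19.6 and 20.4 in siNC.

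**Figure D2:**
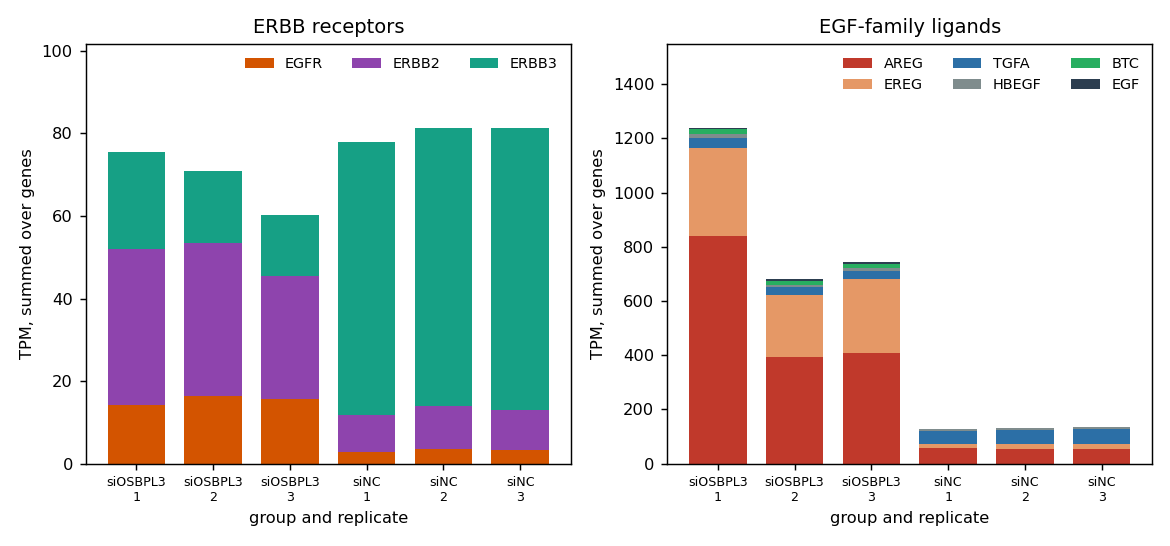
TPM of the ERBB receptor genes (left) and the EGF-family ligand genes (right), stacked per library, with replicates 1 to 3 of siOSBPL3 left of those of siNC. Receptor sums lie between 60.3 and 81.3 TPM in all libraries with a different make-up in the groups, while ligand sums are 681 to 1239 TPM in siOSBPL3 and 129 to 134 TPM in siNC.

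EREG and AREG, neighbouring genes on chromosome 4, gave the highest levels among the members in siOSBPL3. Epiregulin, the product of EREG, and amphiregulin, that of AREG, are EGFR ligands made by epithelia and many carcinomas. The windows around their start sites are shown with that of BTC, because the 3 genes lie close together on chromosome 4 and moved together. Each window holds 250 bases before and 50 after the start site, from RefSeq (GRCh38.p14), written 5' to 3' on the gene's strand. They are chr4:74364895-74365194 (plus strand) for EREG, chr4:74444886-74445185 (plus strand) for AREG and chr4:74794474-74794773 (minus strand) for BTC. Capitals mark matches, on either strand, to the letters of 5 motifs. The cyclic AMP response element (CRE) was searched as TGACGTCA. The AP-1 motif was searched as TGANTCA. For TEAD factors the letters were GGAATG. The TATA box was searched as TATAAA. For Sp1 the letters were GGGCGG.
EREG: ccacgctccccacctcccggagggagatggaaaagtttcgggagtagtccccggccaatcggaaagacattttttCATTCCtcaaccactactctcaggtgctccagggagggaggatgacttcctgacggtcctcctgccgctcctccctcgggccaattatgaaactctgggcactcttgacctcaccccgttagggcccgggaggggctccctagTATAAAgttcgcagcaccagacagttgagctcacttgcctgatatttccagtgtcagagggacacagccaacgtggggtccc
AREG: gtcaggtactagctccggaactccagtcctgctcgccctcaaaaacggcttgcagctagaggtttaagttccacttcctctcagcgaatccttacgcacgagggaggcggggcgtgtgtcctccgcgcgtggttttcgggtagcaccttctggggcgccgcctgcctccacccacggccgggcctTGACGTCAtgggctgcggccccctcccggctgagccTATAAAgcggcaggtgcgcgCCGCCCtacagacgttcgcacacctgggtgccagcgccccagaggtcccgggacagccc
BTC: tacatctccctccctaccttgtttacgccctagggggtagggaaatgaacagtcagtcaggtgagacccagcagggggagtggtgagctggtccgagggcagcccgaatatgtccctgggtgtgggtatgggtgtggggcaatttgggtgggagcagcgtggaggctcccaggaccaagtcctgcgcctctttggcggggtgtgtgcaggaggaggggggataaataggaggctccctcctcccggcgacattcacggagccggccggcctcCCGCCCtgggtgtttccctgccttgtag
EREG and AREG each had a TATA match on the plus strand, at -32 and -29 from the start site, and 11.5% of all 35116 RefSeq windows hold those letters. AREG also held a CRE match at -65, found in 1.85% of windows, and an Sp1 match at -9, found in 45.0%. EREG held a TEAD match at -175, found in 14.0% of windows. BTC had an Sp1 match that begins at base 23 after the start, counted from 1 at the start site. None of the 3 windows held the AP-1 letters, which are in 7.71% of windows. Among member windows not shown, those of EGF (at -17) and ERBB2 (at -222) held them. So did a window of EGFR (at -232 and -136), whereas those of ERBB4, TGFA and HBEGF did not. No match in the 3 windows shown overlapped another. GC content was 57.7% for EREG, 66.3% for AREG and 63.0% for BTC, against a median of 58.7% over all windows. A match describes letters in these windows and shows no binding.

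EREG stood at 555, 390 and 479 CPM in siOSBPL3, against 25.1, 27.7 and 26.6 CPM in siNC. Every siOSBPL3 library was far above every siNC library. The fold change was 17.9 (log2 4.17 ± 0.13 SE, adjusted p = 8.3e-11, edgeR quasi-likelihood test). EREG transcripts are poor in G and C (36.1%), and with the GC-length correction the log2 fold change was 5.004.

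AREG stood at 382, 181 and 194 CPM in siOSBPL3, against 24.2, 23.1 and 23.3 CPM in siNC. Replicate 1 stood well above the other siOSBPL3 libraries, and all 3 lay above siNC. AREG rose 10.7-fold (log2 3.42 ± 0.29 SE, adjusted p = 9.1e-06, edgeR quasi-likelihood test), and its log2 fold change without siOSBPL3 replicate 1 was 3.00. Its coefficient of variation in siOSBPL3, 44.4%, was the largest among the 9 members there and lay above the median of 10.9%. The same replicate held the most OSBPL3 transcript of its group, 22.8% of the siNC mean, against 6.93% in replicate 2 and 8.61% in replicate 3. It was also the highest of its group for ERBB2, ERBB3, EREG, TGFA, HBEGF and BTC and the lowest for EGFR and EGF. Whether AREG and OSBPL3 levels are related within the group was not tested.

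Together, EREG and AREG took 0.0979%, 0.0573% and 0.0671% of all counts in siOSBPL3, against 0.0048%, 0.0050% and 0.0049% in siNC. In TPM the ratio of EREG to AREG was 0.390, 0.577 and 0.662 in siOSBPL3, against 0.278, 0.322 and 0.306 in siNC, so AREG was the more abundant per length in each library. By mean TPM, AREG ranked 252 of 14435 genes in siOSBPL3 and 3179 in siNC, and EREG ranked 565 in siOSBPL3 and 7360 in siNC.

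BTC and EGF were close to absent in siNC. BTC, which encodes betacellulin, a ligand of EGFR and ERBB4, had 686, 518 and 640 counts in siOSBPL3 and 7, 8 and 7 counts in siNC. That is 19.0, 14.2 and 16.2 CPM in siOSBPL3, against 0.213, 0.241 and 0.236 CPM in siNC. The ratio of summed counts, each over its summed library sizes, was 71.5, with a 95% exact binomial interval from 47.1 to 114 that covers counting error only (fitted log2 fold change 6.14 ± 0.23 SE, adjusted p = 3.2e-10, edgeR quasi-likelihood test). EGF, the founding ligand of the family, had 341, 459 and 395 counts in siOSBPL3 and 2, 1 and 1 counts in siNC. Its ratio was 255 with an interval from 99.2 to 936, and its fitted log2 fold change, which depends on the prior count, was 7.88 ± 0.34 (adjusted p = 9.2e-10, edgeR quasi-likelihood test). Even in siOSBPL3, EGF was the least abundant member per length, at 5.84 ± 0.93 TPM (SD, n = 3).

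HBEGF and TGFA moved least. HBEGF, the heparin-binding ligand of EGFR and ERBB4, stood at 12.2, 8.12 and 10.2 CPM in siOSBPL3, against 6.03, 6.78 and 5.46 CPM in siNC. The lowest siOSBPL3 library was only a little above the highest siNC library. HBEGF rose 1.67-fold (log2 0.74 ± 0.18 SE, adjusted p = 0.0024, edgeR quasi-likelihood test), and with the GC-length correction its log2 fold change was 0.43 (adjusted p = 0.040). TGFA, the gene of transforming growth factor alpha, stood at 63.2, 54.9 and 54.3 CPM in siOSBPL3, against 81.3, 83.2 and 89.0 CPM in siNC. TGFA was the single ligand of the 6 that was lower in siOSBPL3, by 1.47-fold (log2 fold change -0.56 ± 0.09 SE, adjusted p = 8.6e-05, edgeR quasi-likelihood test), and the correction brought the log2 value to -0.32.

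The ligand sum in TPM was 1239, 681 and 743 in siOSBPL3 and 129, 132 and 134 in siNC. AREG and EREG made up most of it in siOSBPL3, whereas AREG and TGFA did in siNC. AREG made up 67.7%, 57.8% and 55.2% of the sum in siOSBPL3, against 43.9%, 41.5% and 41.3% in siNC. EREG made up 26.4%, 33.3% and 36.6% in siOSBPL3, against 12.2%, 13.4% and 12.6% in siNC. TGFA, by contrast, made up 2.90%, 4.52% and 3.99% in siOSBPL3, against 38.1%, 38.6% and 40.8% in siNC. Ligand transcripts outnumbered those of the 3 receptors by 16.4, 9.62 and 12.3 times in siOSBPL3, against 1.66, 1.62 and 1.64 times in siNC. Per length, the order in siOSBPL3 was AREG, EREG, ERBB2, TGFA, ERBB3, BTC, EGFR, HBEGF and EGF, where neighbours in the order overlapped across libraries for ERBB2 and TGFA, ERBB3 and BTC, and BTC and EGFR. Further apart in the order, ERBB3 also overlapped with EGFR, and BTC with HBEGF. In siNC it was ERBB3, AREG, TGFA, EREG, ERBB2, HBEGF, EGFR, BTC and EGF, with no overlap between neighbours. With the longest transcript of each gene as its length, BTC and EGFR changed places in siOSBPL3 and AREG and TGFA in siNC.

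Other genes of the pathway moved more often down than up. Of 54 listed genes, 49 had a row and 47 were tested, of which 10 rose, 29 fell and 8 were not called. That is 21.3% as higher and 61.7% as lower, against 40.4% and 39.8% of all genes tested. With the GC-length correction, 12 rose and 24 fell. Of the 14435 genes tested in that setting, 5521 were called higher and 5587 lower. Among other ERBB ligands, NRG4, a neuregulin that binds ERBB4, was at 0.34 ± 0.12 CPM in siOSBPL3 and 6.82 ± 0.79 CPM in siNC (SD, n = 3 each; log2 fold change -4.29 ± 0.30 SE). NRG2 was at 0.38 CPM in siOSBPL3 and 0.40 CPM in siNC and was not called (adjusted p = 0.92, edgeR quasi-likelihood test). EPGN, NRG1 and NRG3 are not analysed here.

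Genes of ligand release and transport split; values after a gene name from here on are log2 fold changes ± SE. ADAM10 and ADAM17 encode the proteases that release most EGF-family ligands, and both fell, by 1.21 ± 0.09 and 0.52 ± 0.08 on the log2 scale. ADAM9, of the same metalloprotease family, rose (0.71 ± 0.09), while the iRhom genes RHBDF1 and RHBDF2, whose products carry ADAM17 to the surface, were not called (0.18 and 0.08), and ADAM12 had 4 counts in siOSBPL3, 0 in siNC and no test. Of the 5 genes of ligand release tested, 1 rose, 2 fell and 2 were not called. Of 5 genes for ligand trafficking 3 rose and 2 fell. For all genes tested the shares were 40.4% higher and 39.8% lower. With 5 genes tested in each list, these counts are too few to set either list apart from all genes. AP1M2, an epithelial sorting adaptor subunit, was at 80.4 ± 23.8 CPM in siOSBPL3 and 0.73 ± 0.09 CPM in siNC (SD, n = 3 each; log2 fold change 6.77 ± 0.25 SE). NKD2, which helps to deliver the TGFA precursor, fell by 0.76 ± 0.12. Of the cornichon genes, which encode cargo receptors for secreted proteins, CNIH1 fell (-0.42 ± 0.09) and CNIH4 rose (0.34 ± 0.09).

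Of 13 adaptors and first effectors tested, 10 fell, 2 rose and 1 was not called, with a median log2 fold change of -1.17. That is 76.9% called lower, against 39.8% of all genes tested, and 92.3% called in either direction, against 80.2%. Over all pathway lists, the genes called lower went from 29 to 24 with the GC-length correction. That change was not tallied for this list or for those that follow, so how far GC content and length enter these shares was not tested. GRB7, an adaptor that binds ERBB2, was at 18.0 ± 2.00 CPM in siOSBPL3 and 61.5 ± 0.76 CPM in siNC (-1.77 ± 0.10 SE). The RAS exchange factor genes SOS2 (-2.00 ± 0.12) and SOS1 (-1.22 ± 0.09) and the phosphatase gene PTPN11 (-1.17 ± 0.08) fell as well. GC content was 40.3% for SOS2, 37.8% for SOS1 and 42.2% for PTPN11, and 59.9% for GRB7. GRB2, the adaptor between receptor and SOS, was at 124 ± 6.09 CPM in siOSBPL3 and 123 ± 5.72 CPM in siNC and was not called. VAV3 had 1 count in siOSBPL3, 0 in siNC and no test.

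Of 10 negative regulators of the receptors tested, 7 fell, 1 rose and 2 were not called. The share called in either direction, 80.0%, was that of all genes (80.2%), and 70.0% were lower, against 39.8% of all genes. The CBL ubiquitin ligases, which mark EGFR for degradation, went apart. CBLC, the epithelial member, was at 24.6 ± 5.03 CPM in siOSBPL3 and had 2, 1 and 1 counts in siNC, 586 times its siNC level in summed counts per library size (95% exact binomial interval 229 to 2151). Like BTC and EGF, CBLC passed the filter on low counts through siOSBPL3 alone, so its call follows in part from the filter. CBLB fell by 2.70 ± 0.12, and CBL, named here after its values were seen, by 2.29 ± 0.12. SOCS4 (-2.20 ± 0.10), an adaptor that lowers EGFR levels, and the tyrosine phosphatase gene PTPN12 (-1.59 ± 0.08) fell too. ERRFI1, a feedback inhibitor of EGFR named after its values were seen, was not called, at 160, 88.1 and 91.6 CPM in siOSBPL3 against 104, 106 and 108 CPM in siNC. Replicate 1 of siOSBPL3 lay above siNC and the other siOSBPL3 libraries below it. In receptor endocytosis 3 genes rose, 7 fell and 2 were not called of 12 tested. The 83.3% called lay near the 80.2% of all genes, and 58.3% were lower, against 39.8% of all genes. EPS8 (-1.92 ± 0.11), a substrate of the EGFR kinase, and USP8 (-1.14 ± 0.08), which removes ubiquitin from internalised EGFR, fell, while the clathrin adaptor genes EPN1 (1.51 ± 0.09) and AP2M1 (1.08 ± 0.09) rose.

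**Figure D3:**
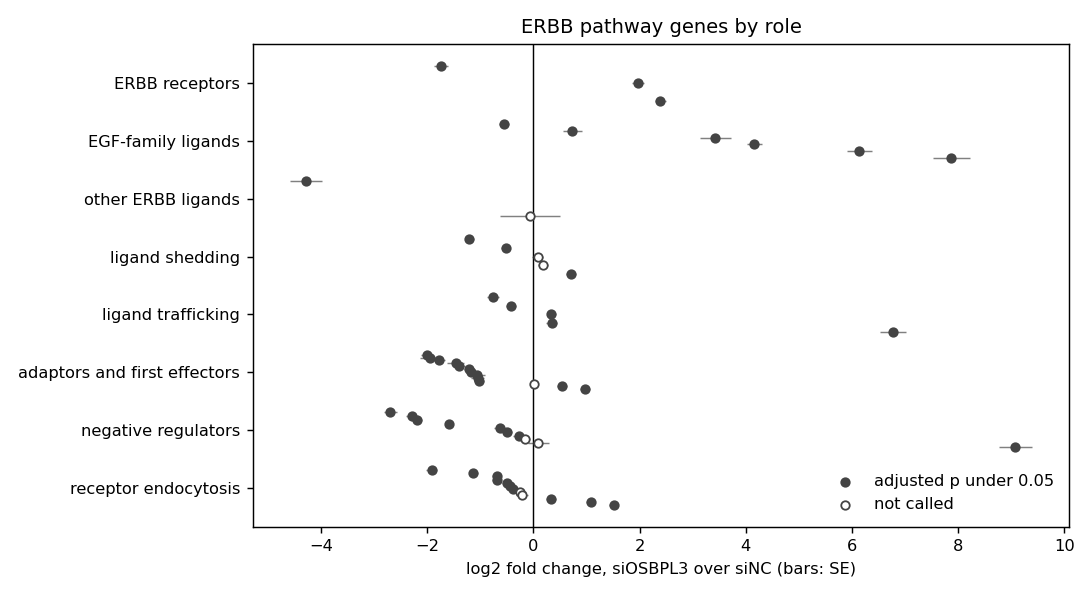
Log2 fold change, siOSBPL3 over siNC, of each tested member and pathway gene by role; points are genes, bars are SE, filled points have an adjusted p under 0.05 and open points do not. Ligand genes reach 7.88 (EGF) and CBLC 9.08. Both rest on a summed count of 4 in siNC, depend on the prior count and passed the filter through siOSBPL3 alone. Of 13 adaptors and first effectors, 10 lie below 0 and are called (76.9%, against 39.8% of all genes tested).

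The members were also placed beside their neighbours on GRCh38.p14. EREG (chromosome 4, 74365145 to 74388749) and AREG (74445136 to 74455005) lie 56.4 kb apart, and BTC (74744759 to 74794523) follows 290 kb after AREG. The neighbouring genes did not all move with them. MTHFD2L, on the lower side, fell (-0.63 ± 0.14), while CXCL2, a chemokine gene beyond it, rose by 5.19 ± 0.14. PARM1, beyond BTC, rose by 7.18 ± 0.33, with 12.6 CPM in siOSBPL3 and 0.083 CPM in siNC. Like BTC, PARM1 passed the filter on low counts through siOSBPL3 alone, so its call follows in part from the filter. Its fitted value also depends on the prior count. Around ERBB2 (chromosome 17, 39688094 to 39728658), PGAP3 rose (2.39 ± 0.18) and so did MIEN1 (1.37 ± 0.09), TCAP was not called (0.31 ± 0.58), and GRB7, 9.28 kb further on, fell. MIEN1 overlaps 149 bases of ERBB2, where reads of the genes cannot be separated without a stated strand setting. Around EGFR (chromosome 7, 55019017 to 55211628) each of the nearest tested genes moved less than EGFR. SEC61G, 260 kb away, rose by 0.41 ± 0.09, and LANCL2, at 154 kb, by 0.46 ± 0.13. VOPP1, at 223 kb, fell (-0.86 ± 0.10), and so did COBL (-1.91 ± 0.09), which lies 3702 kb away.

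**Figure D4:**
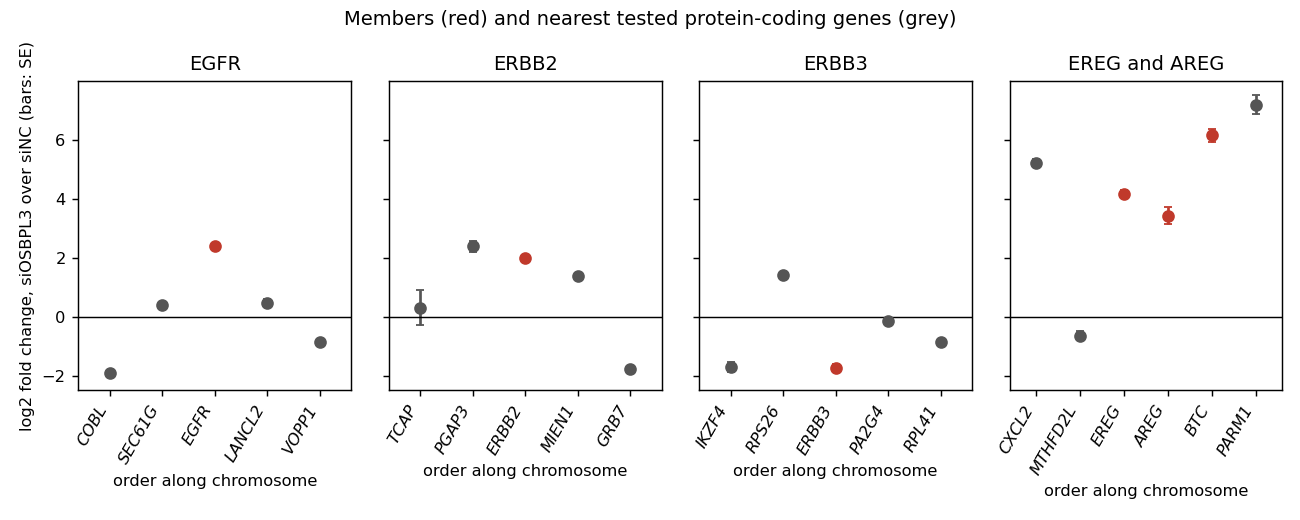
Log2 fold change, siOSBPL3 over siNC, of members (red) and the 2 nearest tested protein-coding genes on each side (grey), in their order along the chromosome; bars are SE. Directly beside ERBB2, PGAP3 and MIEN1 lie above 0 as ERBB2 does, while GRB7, beyond MIEN1, lies below 0. MTHFD2L lies below 0 beside EREG and AREG above 0, and CXCL2, BTC and PARM1 lie above 0.

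Genes with a pattern most like that of EREG, AREG and ERBB3, the 3 members with the highest mean CPM over all 6 libraries, were found by the Euclidean distance between log2 CPM values, centred per gene, over the 6 libraries and 11206 genes. With groups this far apart, such likeness reflects mainly the size of the difference between groups. For EREG the nearest were the troponin gene TNNT1 (distance 0.237), PNMA2 (0.326) and SH3YL1 (0.345). For AREG they were the stress cytokine gene GDF15 (0.298), S100A14 (0.386) and IFI35 (0.395). For ERBB3 they were PAN2 (0.075), a deadenylase subunit gene, the zinc-finger factor gene IKZF4 (0.091) and ZNF875 (0.095). Both PAN2 and IKZF4 also lie near ERBB3 on chromosome 12 (56080108 to 56103505), at 213 kb and 41.7 kb. The neighbourhood of ERBB3 was examined after this was seen. Between IKZF4 and ERBB3, RPS26 rose (1.41 ± 0.08), and on the far side PA2G4 was not called (-0.13 ± 0.10) and RPL41 fell (-0.85 ± 0.08). RPS26 and RPL41 have many processed copies in the genome, so their levels are uncertain.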

How the data were processed

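RNA was measured in 6 libraries, 3 siOSBPL3 and 3 siNC, grouped by sample titles. Library names tied columns to samples. The authors deposited raw read counts per gene symbol, with no normalization. HISAT2 2.2.1, HTSeq 0.13.5 and GRCh38 were used, per the submitters' processing notes. Annotation, strand setting and counting options are not given in the sources used here.

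The test used edgeR 4.0.16 under R 4.3.3: filterByExpr (minimum count 10, total 15), TMM scaling and a robust quasi-likelihood model with group as its term. The test was two-sided, with Benjamini-Hochberg adjustment over 15506 genes and a threshold of 0.05. The SE is the absolute log2 fold change divided by the root of F. TPM used merged exon lengths of GENCODE 29, which matched 17465 symbols. No pair of replicates agreed within sampling noise (18.4 to 48.9 chi-square per degree of freedom in siOSBPL3, 2.94 to 3.52 in siNC), so each library counted separately. Such spread does not show whether the libraries came from separate cultures. Intervals cover counting error only. The edgeR step was tested on simulated data.

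Members, lists, tests and alternatives were chosen with earlier results of these data known. Named genes were OSBPL3, all members, tested ligands of the pathway lists, up to 4 called genes per other list with the smallest adjusted p, the 3 nearest in pattern of the 3 members with the highest mean CPM over all libraries, and the 2 nearest tested protein-coding genes on each side of ERBB2, EGFR and AREG-EREG. RHBDF1, RHBDF2, GRB2, ADAM12, VAV3, CBL, ERRFI1, the neighbours of ERBB3 and of BTC, and the cell type markers named fall outside this rule and were chosen after their values were seen. Alternatives were DESeq2 1.42.0, limma-voom (limma 3.58.1), RLE factors, library totals, other filters, a threshold of 0.01, a replicate block, each library left out, and smooth GC and length offsets (mgcv 1.9.3, 93.1% of tested genes). The motifs were chosen with the sequences in view.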

Additional observations from a re-analysis of the deposited data

How the results depend on the processing

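The calls and directions of the 9 tested members and of OSBPL3 were the same under the 15 alternatives run: 7 members were called higher and 2 lower in each. Over all settings the log2 fold change ran from 2.32 to 2.88 for EGFR, from 1.47 to 2.07 for ERBB2, from -1.92 to -1.61 for ERBB3, from 3.00 to 3.62 for AREG, from 4.04 to 5.004 for EREG, from -0.62 to -0.32 for TGFA, from 0.43 to 0.88 for HBEGF, from 6.03 to 6.54 for BTC and from 7.57 to 8.23 for EGF. The highest adjusted p among members was 0.040, for HBEGF with the correction for GC content and length. Calls over all genes ran from 9396, when only the 11206 genes averaging 5 CPM or more were tested, to 13157, with no filter. Library totals in place of TMM put the median log2 fold change at 0.042. Pathway genes called higher ran from 10 to 12 and lower from 24 to 31. With the replicate number as a block, 12277 genes were called, with 7 members higher and 2 lower. Libraries of the same number did not deviate together (correlations -0.0033, -0.0066 and -0.0033), so the counts show no pairing by number. Whether libraries of the same number were prepared together cannot be told from this. At 30040020 counts or more per library, BTC and EGF in siNC still rest on 22 and 4 counts.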
